A study of Homo sapiens with 9 samples.

Results

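The clustered histone genes are the genes that sit together in the HIST1, HIST2, HIST3 and HIST4 loci and encode the linker histone H1 and the core histones H2A, H2B, H3 and H4. They were taken as every deposited feature with a gene symbol that starts with HIST1H, HIST2H, HIST3H or HIST4H, leaving out symbols that end in PS and a number. This gave 66 features with 69 such symbols, among 31080 reference genes or joined groups of genes. HIST1 on chromosome 6 held 46 of them, HIST2 15 and HIST3 4, both on chromosome 1, and HIST4 1 on chromosome 12. There were 5 features for H1, 11 for H2A, 21 for H2B, 12 for H3 and 14 for H4, and 3 that join an H2A gene with an H2B or H3 gene. Of the 66, 59 passed the filter of at least 0.1 FPKM in at least 3 libraries and were tested. FPKM is a read level corrected for gene length and library depth.

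RNA was measured in A549, a human lung adenocarcinoma cell line, 48 h after transfection with 50 nM siRNA. The groups were scrambled siRNA, siCyclin K#1 and siCyclin K#2, with 3 libraries each from samples that the series calls independent. Cyclin K is the regulatory partner of the kinases CDK12 and CDK13, which phosphorylate RNA polymerase II, and the comparison asks what its loss does to the transcriptome. The sample labels and the methods name different culture media, RPMI-1640 and DMEM, and whether libraries were made from polyadenylated RNA is not given in the sources used here.

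Most clustered histone genes have no intron, and their mRNAs end in a conserved stem-loop instead of a poly(A) tail. SLBP binds the stem-loop, the U7 machinery cleaves the pre-mRNA just downstream of it, and it stays as the 3′ end of an mRNA that accumulates during DNA replication and decays as replication ends. Several of these genes can also be transcribed past the stem-loop to a downstream poly(A) signal, sometimes with splicing, which is known from differentiated cells and from cells with disturbed 3′ end formation. A library of polyadenylated RNA sees mainly that second form. Gene-level FPKM does not separate the forms. The variants H3.3 and H2A.Z are made outside S phase from genes elsewhere in the genome, with introns and poly(A) tails.

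The stem-loop was looked for in the sense strand of the GENCODE 29 transcripts (GRCh38) as the 16 letters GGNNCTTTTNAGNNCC. It was found in 79 of 206570 transcripts of other genes, or 0.0382%. Of the 66 features, 23 had a transcript that runs on for at least 100 bases after these letters and 9 had one that stops sooner. Another 33 had none with the letters, and 1, HIST2H2BC, had an identifier that is not in GENCODE 29. Some of the 33 have short models, such as 312 bases for HIST1H4A and 381 for HIST1H2BB. Lack of the letters thus describes the annotation and not the gene. The 8 windows below are from members whose level differed between groups, and show how alike the element is across classes. Each has the stem-loop in capitals, read 5′ to 3′ from the annotated transcript.
HIST1H2BD: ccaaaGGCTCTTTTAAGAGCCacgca
HIST1H2BC: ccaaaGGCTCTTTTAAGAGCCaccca
HIST1H2BH: ccaaaGGCTCTTTTCAGAGCCactta
HIST2H2BE: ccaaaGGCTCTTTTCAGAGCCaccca
HIST1H2AC: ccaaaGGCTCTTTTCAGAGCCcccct
HIST1H3G: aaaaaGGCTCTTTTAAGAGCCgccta
HIST1H4H: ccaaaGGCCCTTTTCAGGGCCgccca
HIST2H4B: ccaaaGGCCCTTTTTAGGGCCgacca

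In the genome the capitals of HIST1H2BD lie at chr6:26158587-26158602 on the plus strand, and those of HIST1H2BC at chr6:26123472-26123487 on the minus strand. For HIST1H2BH they are at chr6:26252055-26252070 (plus), for HIST2H2BE at chr1:149886188-149886203 (minus) and for HIST1H2AC at chr6:26124669-26124684 (plus). For HIST1H3G they are at chr6:26270923-26270938 (minus), for HIST1H4H at chr6:26285131-26285146 (minus) and for HIST2H4B at chr1:149860769-149860784 (minus). The H2A, H2B and H3 stem-loops shown share their stem letters, the H4 ones have another stem, and the members differ mainly at the loop base after the run of T. The longest annotated transcript goes on after the stem-loop for 1640 bases in HIST1H2BH, 1729 in HIST2H2BE, 1128 in HIST1H2AC, 1518 in HIST1H3G, 1655 in HIST1H4H and 1314 in HIST2H4B. HIST1H2BC runs on for 116 bases and HIST1H2BD for 39. HIST1H2BD also has a spliced transcript without the letters, and HIST1H2BC too has a transcript without them.

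CCNK, the gene of Cyclin K and the target of both siRNAs, had a scrambled level of 7.02 ± 0.107 FPKM (SD, n = 3). It was left at 0.809 ± 0.0857 by siCyclin K#1, 11.5% of scrambled, and at 0.844 ± 0.0661 by siCyclin K#2, 12.03%. The depth recovered from the low FPKM values was 31334442 to 33767402 reads per library. Of the epithelial and A549 markers, KRT8, KRT18, CDH1, AKR1B10 and AKR1C1 were detected in every library, with KRT18 at 69.8 to 91.0 FPKM, while KRT19 was at 0.108 or less and KRT7 was not analysed here. The leukocyte marker PTPRC, the endothelial markers PECAM1 and CDH5 and the fibroblast marker COL3A1 stayed at 0.0227 FPKM or less, and COL1A1 had a mean of 2.03 with scrambled siRNA, 14.01 under siCyclin K#1 and 3.19 under siCyclin K#2. In these bulk samples fewer cells of a type and less RNA per cell cannot be told apart, which holds also for fewer cells in S phase.

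With scrambled siRNA the 66 features summed to 97.6 ± 2.11 FPKM (SD, n = 3), 0.0372% of all FPKM in the files. A small number of genes made up most of it. HIST1H4C, an H4 gene, held 19.2% of the sum at 18.7 ± 2.43 FPKM, and HIST1H1C, which encodes linker histone H1.2, followed at 15.7 ± 1.62. HIST1H2BK came next at 7.62 ± 0.394, ahead of the near-identical H2A genes HIST2H2AA3 and HIST2H2AA4 at 5.74 ± 0.277 and 5.16 ± 0.476. The libraries of HIST1H4C and HIST1H1C overlapped, as did those of HIST2H2AA3 and HIST2H2AA4, whereas HIST1H2BK stood between the pairs without overlap. In all 20 features had a scrambled mean of 1 FPKM or more, and 4 were at 0 in all scrambled libraries, among them HIST1H1B and HIST1H2BG. The other features lay between these limits, many of them on a handful of reads.

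**Figure D1:**
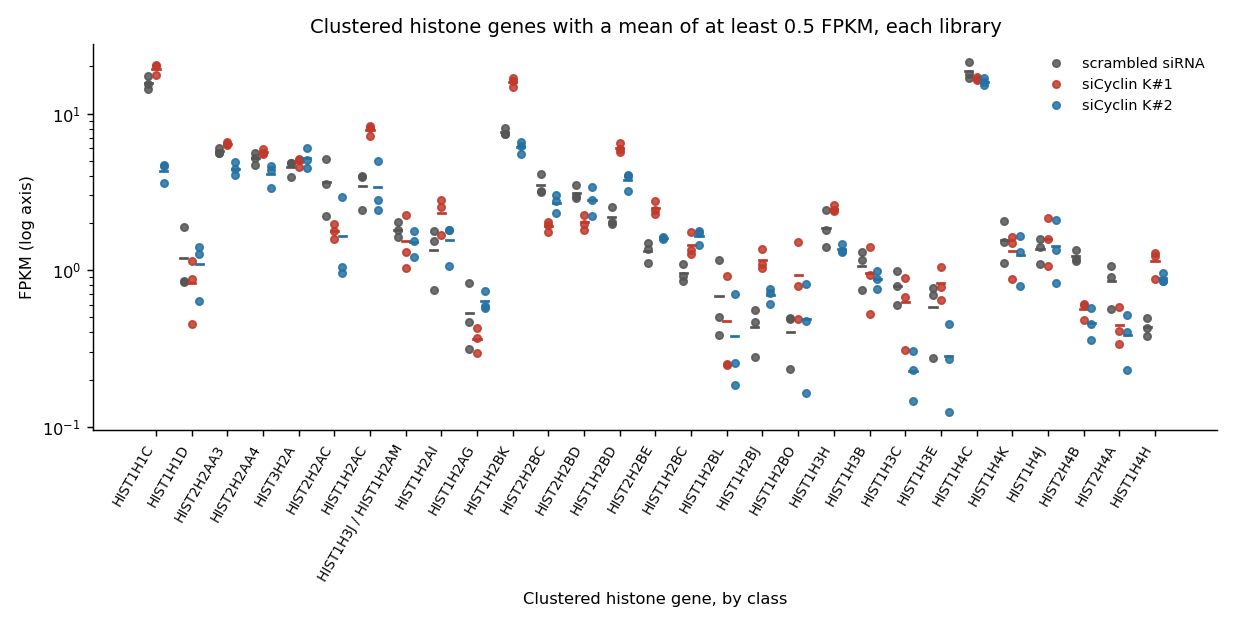
FPKM (log axis) of the 29 features with a mean of at least 0.5 FPKM over the 9 libraries, ordered by histone class and scrambled level. Each point is a library and each short bar a group mean; HIST1H1C with siCyclin K#2 (blue, 4.69 or less) lies below the scrambled libraries (14.3 or more), and HIST1H2BK with siCyclin K#1 (red, 14.7 or more) above them (8.07 or less).

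Over both siRNAs together, 8 of the 59 tested features had an adjusted p under 0.05, 4 higher and 4 lower, where 28.6% of all 21048 tested genes did (17% higher, 11.5% lower). The features that rose were HIST1H2BD, HIST1H2BC and HIST1H2BJ of class H2B and HIST1H4H of class H4, and all 4 lie in the HIST1 cluster. The features that fell were HIST2H4A and HIST2H4B, HIST2H2AC and the H2B pseudogene HIST2H2BC, and all 4 lie in HIST2. No feature passed a fold change over 3 with an unadjusted p under 0.01, the call the study's methods state, which 2.29% of all genes passed. By limma 11 of the 59 had an unadjusted p under 0.05, as did at least 28.6% of all genes. At the fold over 3, limma-voom on recovered reads also called 0. The median difference of the 59 was 0.02 on the log2 scale beside 0.06 for all genes. The count of 8 became 4 without scrambled library 1, and 5 without scrambled library 2 or 3 or siCyclin K#1 library 1 or 2.

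Each siRNA was also tested alone. Against scrambled siRNA, siCyclin K#1 changed 12 features, 9 higher and 3 lower (background 26.8% and 18.1%), and siCyclin K#2 changed 10, 4 higher and 6 lower (background 19.8% and 15.2%). Either share, 20.3% and 16.9% of the members, lay under that of all genes, which was 44.8% and 34.9%. Among the 19 tested members with a mean of at least 1 FPKM, the shares were 36.8% and 26.3%. The share of all genes at that level is not given here. Shares by class and cluster below do not allow for level. HIST1H2BD, HIST1H2BC and HIST1H4H passed as higher with each siRNA and HIST2H4B as lower with each, and 42 features passed with neither. HIST1H2BK was higher with siCyclin K#1 and lower with siCyclin K#2. Tested directly, siCyclin K#1 was above siCyclin K#2 for 13 features and below it for 1 (background 17.1% and 12.3%), together 23.7% of the members beside 29.4% of all genes. Of the 19 members with a mean of at least 1 FPKM, 47.4% passed in the direct test. HIST1H1C and HIST1H2BH passed the fold of 3 there, as did 1.53% of all genes. HIST1H2BH and HIST1H3G count among both the 9 and the 13 features. They reached 0.1 FPKM only in the siCyclin K#1 libraries and so had to differ. With median-ratio rescaling or quantile normalization, 4 features were higher and 10 lower with siCyclin K#2. With quantile normalization 8 were higher and 5 lower with siCyclin K#1, where that setting moved the median of all genes from 0.10 to -0.02. Those 5 include the joined HIST1H3D and HIST1H2AD. That feature reached 0.1 FPKM only in the scrambled libraries and so had to differ.

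**Figure D2:**
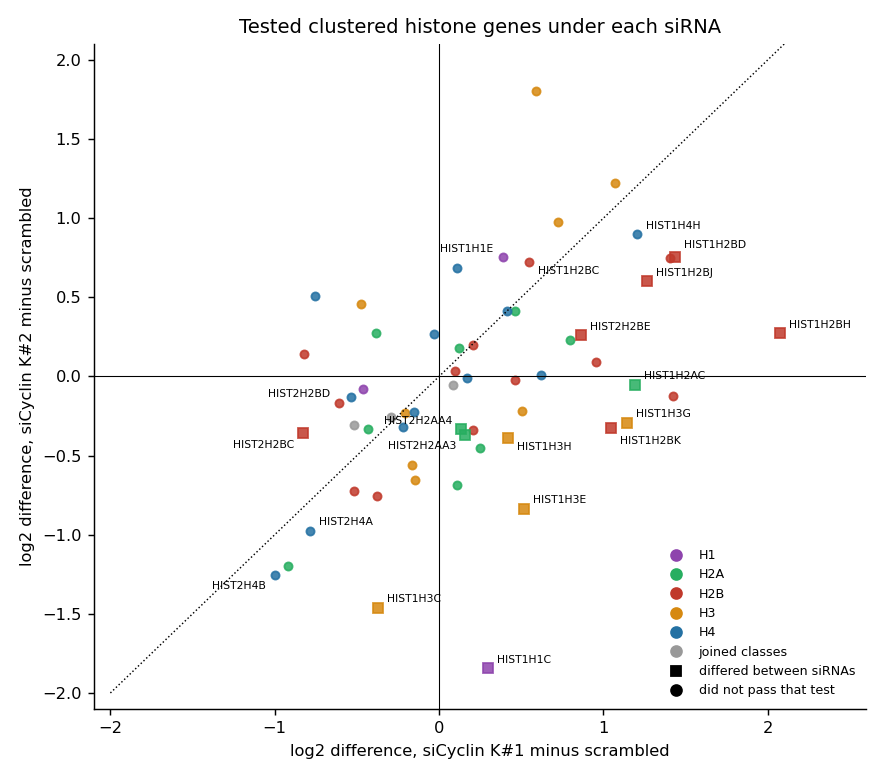
Difference from scrambled siRNA on the log2(FPKM + 0.1) scale with siCyclin K#1 (horizontal) and siCyclin K#2 (vertical) for the 59 tested features, coloured by class. Squares mark the 14 features that differed between the siRNAs at an adjusted p under 0.05, names are given for features called with a single siRNA or between the siRNAs, and the dotted line is equality; 13 of the 14 squares lie to the right of it.

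H1, the linker histone that binds DNA where it enters and leaves the nucleosome, had 5 features and 3 tested. HIST1H1C was at 15.4, 14.3 and 17.5 FPKM with scrambled siRNA, 20.5, 17.5 and 20.04 under siCyclin K#1, and 4.65, 3.61 and 4.69 under siCyclin K#2. Every siCyclin K#2 library was thus far below the others, and it fell by 1.85 on the log2 scale (SE 0.12, adjusted p = 5.7e-06), the only feature past the fold threshold of 3 with this siRNA, a share of 1.94% among all genes in either direction. With siCyclin K#1 the difference was 0.30 (SE 0.12, adjusted p = 0.069), all libraries being above scrambled, and it passed with limma-voom (0.049), a replicate block (0.0085), only those groups fitted (0.041) or without scrambled library 3 (0.045) or siCyclin K#2 library 2 (0.026), over a range of 0.0085 to 0.20. Between the siRNAs the difference was 2.14 (SE 0.12, adjusted p = 4.2e-06). HIST1H1E, another H1 gene, was at 0.236, 0.167 and 0.286 FPKM with scrambled siRNA and 0.454, 0.479 and 0.416 with siCyclin K#2, all higher, on 4 to 12 reads per library. That rise of 0.75 (adjusted p = 0.020) did not pass without scrambled library 2 (0.062) or siCyclin K#2 library 1 (0.053) or 2 (0.061), with a range over all alternatives of 0.010 to 0.066. HIST1H1D showed differences of -0.46 and -0.08 with the siRNAs, neither past the test.

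H2A pairs with H2B in the nucleosome. HIST1H2AC was at 3.95, 4.01 and 2.44 FPKM with scrambled siRNA, 8.29, 7.17 and 8.11 under siCyclin K#1 and 2.82, 2.43 and 5.00 under siCyclin K#2. Only the siCyclin K#1 libraries stood apart, with a rise of 1.19 (SE 0.27, adjusted p = 0.0065) and a difference between the siRNAs of 1.24 (adjusted p = 0.0084). HIST2H2AA3 was at 5.61, 6.06 and 5.56 FPKM with scrambled siRNA, 6.58, 6.28 and 6.41 under siCyclin K#1 and 4.02, 4.88 and 4.40 under siCyclin K#2, so that the groups followed each other without overlap. It fell by 0.37 with siCyclin K#2 (adjusted p = 0.0047), a call lost in limma-voom (0.058, range over all alternatives 0.0012 to 0.058). Its copy HIST2H2AA4 showed differences of 0.14 and -0.33 (adjusted p = 0.056 for the second). The second passed with median-ratio rescaling (0.030), quantile normalization (0.019), a mean of at least 1 FPKM (0.038), or without scrambled library 1 (0.048) or siCyclin K#2 library 2 (0.033), and ranged from 0.019 to 0.17. All 100-letter stretches of HIST2H2AA3 and 96.8% of those of HIST2H2AA4 occur in another gene, so reads of the pair cannot be told apart and their values are uncertain.

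HIST2H2AC was at 3.57, 5.15 and 2.21 FPKM with scrambled siRNA, 1.58, 1.96 and 1.79 under siCyclin K#1 and 0.957, 2.93 and 1.05 under siCyclin K#2. The scrambled libraries were widely spread and 1 siCyclin K#2 library reached into them. The fall of 1.06 over both siRNAs (SE 0.35, adjusted p = 0.048) did not pass without any of scrambled library 1 (0.13) or 2 (0.20), the 3 siCyclin K#1 libraries (0.059 to 0.076) or siCyclin K#2 library 1 (0.072) or 3 (0.076), and ranged from 0.018 to 0.20 over all alternatives. HIST3H2A, encoded in HIST3, had means of 4.54, 4.93 and 5.17 FPKM in the order scrambled, siCyclin K#1 and siCyclin K#2, and passed no test. Of the 11 tested H2A features, 1 was higher with siCyclin K#1 and 1 lower with siCyclin K#2, or 9.09% each beside 44.8% and 34.9% of all genes.

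H2B, the largest tested class, had 6 of 18 features higher and 2 lower with siCyclin K#1, or 44.4% called beside 44.8% of all genes. The 6 include HIST1H2BH, which had to differ. With siCyclin K#2 the class had 2 higher and 1 lower, or 16.7% beside 34.9%, so neither share exceeded that of all genes. HIST1H2BK was at 7.35, 7.44 and 8.07 FPKM with scrambled siRNA, 16.8, 16.1 and 14.7 under siCyclin K#1 and 5.48, 6.54 and 6.24 under siCyclin K#2. The groups did not overlap: siCyclin K#1 was higher by 1.05 (SE 0.08, adjusted p = 8.8e-06) and siCyclin K#2 fell by 0.32 (SE 0.08, adjusted p = 0.012). The direct difference was 1.37 (adjusted p = 5.7e-06). HIST1H2BD was at 1.97, 2.02 and 2.55 FPKM with scrambled siRNA, 5.92, 5.68 and 6.48 under siCyclin K#1 and 3.18, 4.08 and 3.96 under siCyclin K#2. All 6 siCyclin K libraries were above the scrambled ones, by 1.09 together (SE 0.22, adjusted p = 0.0047), by 1.43 with siCyclin K#1 (adjusted p = 2.1e-05) and by 0.75 with siCyclin K#2 (adjusted p = 0.0016). The long spliced model of HIST1H2BD overlaps AL353759.1 on the other strand over 10585 bases, and whether the counting used strand is not given in the sources used here.

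HIST1H2BC was at 0.852, 1.09 and 0.924 FPKM with scrambled siRNA, 1.74, 1.34 and 1.27 under siCyclin K#1 and 1.72, 1.44 and 1.77 under siCyclin K#2. The siRNA groups overlapped each other and not the scrambled group, with rises of 0.55 (adjusted p = 0.015) and 0.72 (adjusted p = 0.0050) and of 0.64 together (adjusted p = 0.0093). Without scrambled library 1 the call over both siRNAs was at 0.051 (range over all alternatives 0.0056 to 0.051) and that of siCyclin K#1 at 0.053 (range 0.0097 to 0.089). HIST1H2BJ was at 0.467, 0.559 and 0.279 FPKM with scrambled siRNA, 1.36, 1.04 and 1.09 under siCyclin K#1 and 0.606, 0.758 and 0.716 under siCyclin K#2. All siCyclin K#1 libraries lay above all others, and the rise was 1.27 (SE 0.22, adjusted p = 0.0013) against 0.60 with siCyclin K#2 (adjusted p = 0.062). Over both siRNAs it was 0.93 (adjusted p = 0.026), and this did not pass without scrambled library 1 (0.062) or 3 (0.12) or with a replicate block (0.055), over a range of 0.017 to 0.12.

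HIST2H2BE was at 1.498, 1.37 and 1.11 FPKM with scrambled siRNA, 2.44, 2.76 and 2.27 under siCyclin K#1 and 1.62, 1.58 and 1.602 under siCyclin K#2, and rose by 0.86 with siCyclin K#1 (SE 0.12, adjusted p = 0.00039). HIST1H2BH was at 2, 0 and 4 reads with scrambled siRNA, 17, 34 and 40 under siCyclin K#1 and 5, 4 and 2 under siCyclin K#2. It reached 0.1 FPKM in no library outside siCyclin K#1, so it entered the test only through the group where it is high and had to differ, and its difference is given as a description. That difference, 2.07 on the log2 scale with siCyclin K#1 (SE 0.33), was the only one of a member past the fold threshold of 3 there, beside 4.67% of all genes. The added 0.1 FPKM is larger than its scrambled level of 0.0295 FPKM, so this value understates the change and the fold threshold was not passed with a pseudocount of 0.5 or 1.

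The H2B features that fell with siCyclin K#1 are called pseudogenes in their descriptions. HIST2H2BC was at 4.14, 3.14 and 3.19 FPKM with scrambled siRNA, 1.76, 2.04 and 1.94 under siCyclin K#1 and 2.31, 3.01 and 2.76 under siCyclin K#2. It fell by 0.83 with siCyclin K#1 (SE 0.13, adjusted p = 0.00096) and by 0.59 over both siRNAs (adjusted p = 0.033), the second not passing without any 1 of the scrambled libraries (0.062 to 0.15) or of the siCyclin K#1 libraries (0.052 to 0.059) or with a replicate block (0.075), over a range of 0.015 to 0.15. HIST2H2BD was at 2.88, 2.99 and 3.50 FPKM with scrambled siRNA and 1.82, 2.27 and 1.97 with siCyclin K#1, a fall of 0.61 (adjusted p = 0.012), and at 2.21, 3.42 and 2.80 with siCyclin K#2. HIST2H2BD overlaps the GENCODE gene named HIST2H2BC on the other strand over 1989 bases. The deposited feature HIST2H2BC, at chr1:149850193-149850772, lies outside HIST2H2BD. Of the 100-letter stretches of HIST2H2BD 23.3% occur in another histone gene, so part of its reads may not be separable. No tested pseudogene feature was higher in any comparison with scrambled siRNA.

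H3 and H4 form the tetramer at the core of the nucleosome. HIST1H3H, the H3 gene with the highest level, was at 2.42, 1.40 and 1.79 FPKM with scrambled siRNA, 2.398, 2.43 and 2.6001 under siCyclin K#1 and 1.33, 1.31 and 1.47 under siCyclin K#2. The scrambled libraries spanned the range between the siRNA groups, neither of which passed against them, while the siRNAs differed by 0.81 (adjusted p = 0.0068). HIST1H3G was at 8, 6 and 4 reads with scrambled siRNA, 21, 21 and 25 under siCyclin K#1 and 3, 3 and 4 under siCyclin K#2, with a difference of 1.15 for siCyclin K#1 (SE 0.22). It too reached 0.1 FPKM only in the siCyclin K#1 libraries and so had to differ, and the value is a description. HIST1H3C was at 11, 13 and 8 reads with scrambled siRNA, 9, 4 and 12 under siCyclin K#1 and 4, 2 and 3 under siCyclin K#2, and fell by 1.46 with siCyclin K#2 (SE 0.34, adjusted p = 0.010). Of 12 tested H3 features these were the only calls against scrambled siRNA, or 8.33% with each siRNA beside 44.8% and 34.9% of all genes. HIST1H3B, HIST1H3E and the joined HIST1H3J and HIST1H2AM had differences over both siRNAs of -0.22, -0.16 and -0.28 and passed no test over both.

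For H4, HIST1H4C was at 17.8, 16.9 and 21.5 FPKM with scrambled siRNA, 16.5, 16.4 and 17.2 under siCyclin K#1 and 15.9, 16.8 and 15.2 under siCyclin K#2. The difference of -0.19 over both siRNAs (SE 0.08, adjusted p = 0.12) did not pass, and did with median-ratio rescaling. HIST1H4H was at 0.493, 0.377 and 0.428 FPKM with scrambled siRNA, 1.29, 1.24 and 0.884 under siCyclin K#1 and 0.964, 0.849 and 0.856 under siCyclin K#2. All 6 siCyclin K libraries were above the scrambled ones, by 1.05 together (SE 0.18, adjusted p = 0.0016), and by 1.204 and 0.90 with the siRNAs in turn (adjusted p = 0.00034 and 0.0027). HIST1H4J and HIST1H4K, which share most of their sequence, had differences of 0.08 and -0.27 and passed no test.

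HIST2H4B was at 1.14, 1.35 and 1.18 FPKM with scrambled siRNA, 0.609, 0.480 and 0.598 under siCyclin K#1 and 0.452, 0.359 and 0.569 under siCyclin K#2. No siCyclin K library reached the lowest scrambled one, a fall of 1.13 (SE 0.17, adjusted p = 0.0010). HIST2H4A was at 0.568, 0.904 and 1.07 FPKM with scrambled siRNA, 0.412, 0.340 and 0.582 under siCyclin K#1 and 0.232, 0.401 and 0.519 under siCyclin K#2, with slight overlap. Its fall of 0.88 (SE 0.26, adjusted p = 0.032) did not pass without scrambled library 2 (0.11) or 3 (0.14) or siCyclin K#1 library 1 (0.051) or 2 (0.056), over a range of 0.018 to 0.14. HIST2H4A and HIST2H4B share 97.1% and 98.3% of their 100-letter stretches with other genes, and each overlaps an H3 gene on the other strand over 230 bases, so their separate values are uncertain.

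Summed over each class, the siRNAs shifted the balance between histones in different ways. With siCyclin K#1 the H2B sum was 34.8 ± 1.62 FPKM (SD, n = 3) against 21.7 ± 0.719 with scrambled siRNA, or 161%, and all of its libraries were above. HIST1H2BK accounted for 8.24 and HIST1H2BD for 3.85 of that difference of 13.2 FPKM. The H2A sum was 30.2 ± 1.40 against 25.2 ± 3.02, or 120%, also without overlap, with HIST1H2AC giving 4.39 of 5.09 FPKM. After median-ratio rescaling the H2A libraries of these groups overlapped. H1 was at 119%, H3 at 110% and H4 at 90.4% of scrambled with siCyclin K#1, all with overlapping libraries.

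With siCyclin K#2 the H1 sum was 5.91 ± 0.964 FPKM against 17.2 ± 2.19, or 34.4%, a difference of -11.3 FPKM of which HIST1H1C gave -11.4. H3 was at 82.5%, also with all libraries below. H2A, H2B and H4 were at 85.4%, 99.8% and 86.5% with overlap. In the flat H2B sum a gain of 1.56 FPKM in HIST1H2BD stood beside a loss of 1.54 in HIST1H2BK. The sum over the classes came to 120% of scrambled for siCyclin K#1 and to 79.6% for siCyclin K#2. These sums are descriptions without a test, and the H2B value with siCyclin K#1 was 206% without the pseudogenes, an alternative chosen after seeing the data.

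**Figure D3:**
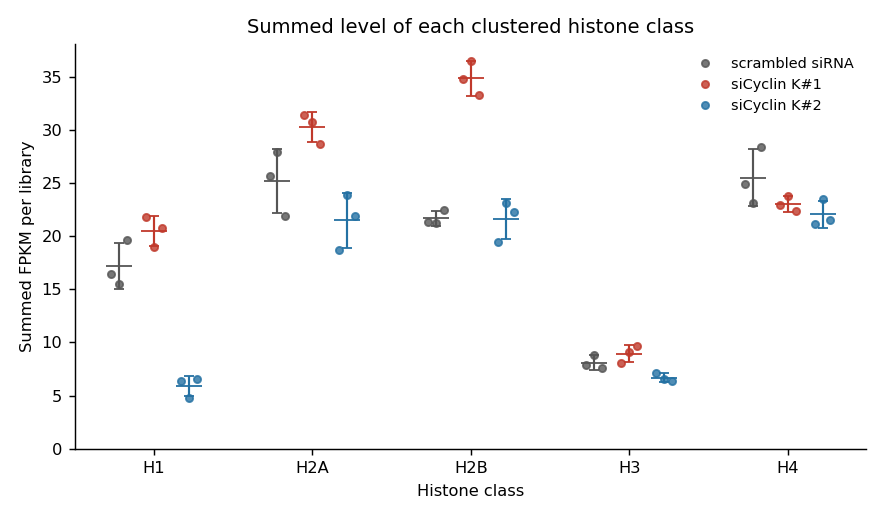
Summed FPKM of each clustered histone class in each library, with joined features counted in the class of their first symbol. Points are libraries, and the horizontal marks and bars give the mean and SD of 3 libraries; H2B is raised with siCyclin K#1 (34.8 against 21.7) and H1 is low with siCyclin K#2 (5.91 against 17.2).

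By position, the HIST1 cluster had 8 features higher and none lower of 41 tested with siCyclin K#1, and 4 higher and 3 lower with siCyclin K#2. The 8 include HIST1H2BH and HIST1H3G, which had to differ. HIST2 had 1 higher and 3 lower of 13 with siCyclin K#1, and none higher and 3 lower with siCyclin K#2. The 3 lower with siCyclin K#1 include the pseudogenes HIST2H2BC and HIST2H2BD. Those lower with siCyclin K#2 were HIST2H4A, HIST2H4B and HIST2H2AA3, which share 97.1%, 98.3% and 100% of their 100-letter stretches with other genes. The calls of HIST2H4A and HIST2H2AA3 did not pass in some alternatives. The shares called were 19.5% in HIST1 and 30.8% in HIST2 for siCyclin K#1, under the 44.8% of all genes, and 17.1% and 23.1% for siCyclin K#2, under 34.9%. The median difference was 0.30 in HIST1 and -0.15 in HIST2 for siCyclin K#1, and -0.01 and -0.37 for the other siRNA, beside 0.10 and 0.01 over all genes. None of the 4 HIST3 features or of HIST4H4 passed a test. By limma 1 HIST3 feature had an unadjusted p under 0.05 with siCyclin K#2 and 0 with siCyclin K#1. At least 34.9% and 44.8% of all genes did so with these siRNAs in turn. The difference between clusters was not tested.

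**Figure D4:**
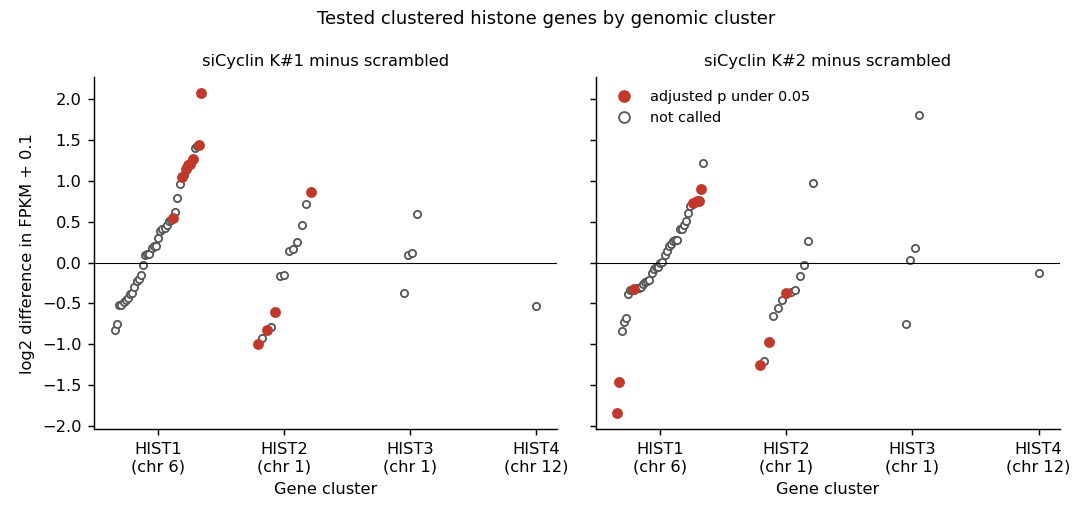
Difference from scrambled siRNA on the log2(FPKM + 0.1) scale with siCyclin K#1 (left) and siCyclin K#2 (right) for the 59 tested features, by gene cluster and in order of size within a cluster. Filled points have an adjusted p under 0.05. HIST2 holds 3 filled points below 0 in each panel, among them pseudogenes on the left and only genes that share nearly all their sequence on the right. HIST1 holds 8 above 0 on the left, among them HIST1H2BH and HIST1H3G, which had to differ.

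Neighbouring genes were set side by side. The annotation holds 10 pairs of members that are transcribed away from each other with at most 1000 bases between their starts, 9 of them an H2A and an H2B gene, an arrangement in which both genes are served by the stretch between them. HIST2H2BE and HIST2H2AC, 322 bases apart, had differences of 0.86 and -0.92 with siCyclin K#1 (adjusted p = 0.00039 and 0.11). HIST1H2BK and HIST1H2AH, 330 bases apart, had 1.05 and -0.43 (adjusted p = 8.8e-06 and 0.38), and HIST1H2BJ and HIST1H2AG, 291 bases apart, had 1.27 and -0.38 (adjusted p = 0.0013 and 0.31). HIST1H2BC and HIST1H2AC, 218 bases apart, both rose with siCyclin K#1, by 0.55 and 1.19, and had 0.72 and -0.05 with siCyclin K#2 (adjusted p = 0.0050 and 0.91). These pairs were picked out after their values were seen, and the difference within a pair was not tested.

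Some promoter letters were unevenly spread over the histone classes. In the RefSeq promoters of GRCh38.p14, from 250 bases before to 50 after the start, 63 member symbols were found. The octamer ATTTGCAT, the letters bound by the POU factor OCT1, occurred on either strand in 14 of 19 H2B and 9 of 13 H2A promoters, in 1 of 14 for H3 and in 0 of 5 for H1 and 0 of 12 for H4, against 1.77% of all 35116 promoters. CCAAT was in all H1, H2A, H2B and H3 promoters and in 2 of 12 for H4 (34.6% of all), and TATAAA was in 42 of the 63 (11.5% of all). Divergent H2A and H2B neighbours can share the stretch that was searched, so 1 match can count for both genes. A match of letters is a description and no binding was measured.

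By transcript annotation, the 4 features that rose over both siRNAs each have a spliced GENCODE transcript, as do 13 of the 59 tested. Among those 13, 4 were higher and 2 lower over both siRNAs, or 46.2% called beside 28.6% of all genes, and among the other 46, 0 were higher and 2 lower, or 4.35%. The 2 lower of the 13 are HIST2H4A and HIST2H4B, whose reads may not be separable. With siCyclin K#1 the counts were 5 higher and 1 lower of 13, again 46.2% and near the 44.8% of all genes, and 4 higher and 2 lower of 46, or 13.0%. Those 4 include HIST1H2BH and HIST1H3G, which had to differ. With siCyclin K#2, 3 were higher and 2 lower of the 13, or 38.5% beside 34.9% of all genes. Of the 46, 1 was higher and 4 lower with siCyclin K#2, or 10.9%. The difference between features with and without a spliced transcript was not tested, and they were not matched for level. Features with a spliced transcript that passed no test were HIST1H2BE, HIST2H2BF, HIST4H4 and the joined HIST1H2BN with HIST1H2AL and HIST1H3J with HIST1H2AM. Models that run past the stem-loop had 6 higher and 2 lower of 22 with siCyclin K#1, or 36.4%, and those without the letters 2 higher and 0 lower of 27, or 7.41%, both under 44.8%. The 6 again include HIST1H2BH and HIST1H3G. With siCyclin K#2 the shares lay closer together, 18.2% of the 22 and 14.8% of the 27, both under 34.9%. Lack of the letters describes the annotated transcript and not the gene. Reads per transcript were not analysed here, so which form of an mRNA changed was not tested.

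The factors that make and process histone mRNAs were described from a list of 22 genes, 20 of them tested. Over both siRNAs 3 were higher and 7 lower, where 17% of all genes were higher and 11.5% lower, with a median of -0.29 beside 0.06 for all genes. These 10 calls became 6 without scrambled library 2 and 5 without scrambled library 3. SLBP, the stem-loop binding protein, was at 29.6, 33.5 and 35.6 FPKM with scrambled siRNA, 29.7, 22.9 and 20.97 under siCyclin K#1 and 30.1, 33.7 and 30.1 under siCyclin K#2. The siCyclin K#1 libraries ranged from the scrambled level to well under it, a fall of 0.43 (adjusted p = 0.020), and the difference of -0.25 over both siRNAs did not pass (adjusted p = 0.24). NPAT, the coactivator that gathers at the histone clusters, was at 5.53, 5.48 and 5.59 FPKM with scrambled siRNA, 4.30, 4.17 and 3.73 under siCyclin K#1 and 5.19, 4.38 and 4.19 under siCyclin K#2, a fall of 0.35 (adjusted p = 0.024) without overlap.

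ZNF473, which encodes the U7-associated zinc finger protein ZFP100, rose from 2.27 ± 0.126 FPKM (SD, n = 3) to 4.56 ± 0.0792 and 4.25 ± 0.427, by 0.93 over both siRNAs (adjusted p = 7.0e-05). LSM1, of the ring that starts decay of histone mRNA, was higher by 0.87 and CPSF3, the nuclease that cuts pre-mRNA 3′ ends, by 0.49. NCBP2 of the cap-binding complex fell by 0.81 and CSTF2, a cleavage factor, by 0.54.

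The genes listed as replication-independent variants had a larger sum than the clustered genes, although single ones ranged down to 0.114 FPKM for a feature of H2BFS with scrambled siRNA. Whether each listed gene is expressed independently of replication was not analysed here. The scrambled sum of the list was 737 ± 20.6 FPKM (SD, n = 3), 7.55 times the clustered sum of the same libraries, and H2AFX alone was at 168 FPKM. The sum of the list was 448 ± 14.4 for siCyclin K#1 and 542 ± 6.06 for siCyclin K#2, or 3.81 and 6.99 times the clustered sum. Whether libraries were made from polyadenylated RNA is not given, so these ratios may not measure relative histone mRNA levels. Of 14 tested features 3 were higher and 6 lower over both siRNAs, beside 17% and 11.5% of all genes, with a median of -0.38, and the 9 calls became 5 without scrambled library 2. H3F3B, an H3.3 gene, was at 84.4, 92.5 and 70.8 FPKM with scrambled siRNA, 17.9, 15.3 and 15.5 under siCyclin K#1 and 45.5, 42.7 and 49.9 under siCyclin K#2. The groups were fully apart, and it fell by 1.58 (SE 0.43, adjusted p = 0.020). H3F3A, which encodes the same H3.3 protein and was named after its values were seen, was at 46.8 ± 0.224 with scrambled siRNA and rose to 68.2 ± 1.303 and 62.7 ± 0.396, by 0.48 (adjusted p = 0.00015). H2AFX, whose product is phosphorylated at DNA breaks, fell by 1.04 and the linker histone gene H1FX by 0.95, while H2AFY2 (macroH2A2) was higher by 1.40 and CENPA, the centromeric H3, by 0.65.

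Among 17 histone chaperones 7 were higher and 2 lower over both siRNAs, beside 17% and 11.5% of all genes, with a median of 0.18, and the 9 calls became 4 without scrambled library 1 or 3 and 5 with median-ratio rescaling. ASF1B, which hands H3 and H4 to the assembly machinery, fell from 30.5 ± 1.71 FPKM (SD, n = 3) to 14.2 ± 1.28 and 17.3 ± 0.596, by 0.96 (adjusted p = 0.00013), and HJURP, the CENPA chaperone, by 1.07. CABIN1 and UBN1 of the H3.3 chaperone complex HIRA were higher by 1.13 and 0.69, and NASP, which stores H3 and H4, by 0.55.

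Of 23 S phase genes, 16 were lower and 4 higher with siCyclin K#1, and 7 lower and 10 higher with siCyclin K#2, and in the direct test 18 were lower with siCyclin K#1 and 0 higher. Of all genes 18.1% were lower and 26.8% higher with siCyclin K#1, 15.2% and 19.8% with siCyclin K#2, and 12.3% and 17.1% in the direct test. This direction is the opposite of the 13 clustered features that were higher with siCyclin K#1 in the same test. Among those 13, HIST1H2BH and HIST1H3G had to differ. The part of the S phase direction in the histone values was not tested. Over both siRNAs 3 were higher and 5 lower with a median of -0.20. CDK2 fell by 0.69, the replication protein gene RPA2 by 0.64 and the helicase gene MCM4 by 0.34, while PCNA, the sliding clamp, was higher by 0.42 and GINS2 by 0.40. CCNE2, named after its values were seen, fell by 2.01 with siCyclin K#1.

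**Figure D5:**
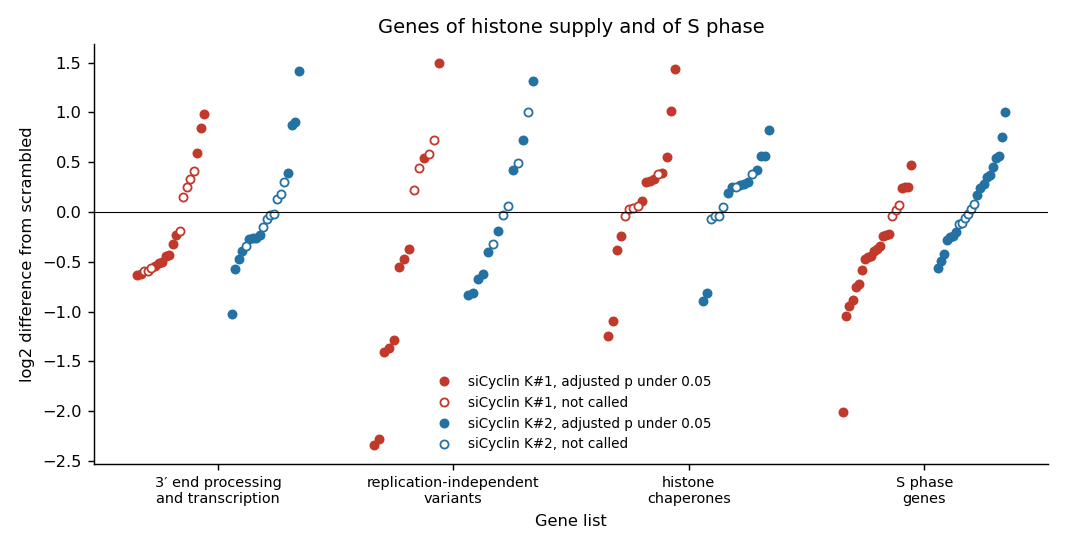
Difference from scrambled siRNA on the log2(FPKM + 0.1) scale for the tested genes of 4 lists, with siCyclin K#1 in red and siCyclin K#2 in blue, in order of size within each list. Filled points have an adjusted p under 0.05; 16 of 23 S phase genes are filled below 0 with siCyclin K#1 and 7 with siCyclin K#2.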

How the data were processed

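RNA of 9 A549 libraries (3 per group, grouped by the sample labels) had been sequenced as paired reads, and the FPKM values that the authors deposited came from StringTie 1.3.3b. The aligner, annotation release and strand setting are not given in the sources used here. Identifiers were those of GRCh38, and 63 of the 66 members had the same coordinates in GENCODE 29. The members and all gene lists were chosen with earlier results of these data known. A feature that joins several genes cannot be split.

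Features of 1 reference gene were summed and loci without a reference gene left out. The 21048 genes that reached 0.1 FPKM in 3 or more libraries entered limma 3.58.1 in R 4.3.3 (lmFit, eBayes with trend) on log2(FPKM + 0.1), a scale that understates folds of low genes, with Benjamini-Hochberg adjustment over all of them. Both siRNAs together were fitted as 2 groups and single siRNAs as 3 groups with a common spread. Calls were made at an adjusted p under 0.05 and, as the study's methods state, at a fold over 3 with p under 0.01. Comparisons with scrambled siRNA share its libraries. On simulated data for the fit of both siRNAs 199 of 200 changed genes were recovered and 16 unchanged ones called. The effect sizes and levels used there are not given here. Recovery of genes with the levels and differences of the members was not tested.

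FPKM steps gave 31334442 to 33767402 reads per library. Of nonzero values up to 200 reads 94.4% were whole to within 0.05 reads, and 56 of 66 members were whole in every library. Class sums were made per library without a test. Named were the 4 highest members per class, at most 5 rises and 5 falls over both siRNAs with a mean of at least 0.5 FPKM, at most 5 genes per other list by size of change, and SLBP, NPAT and CCNK. Members called with 1 siRNA, HIST1H1B, HIST1H2BG, the neighbour pairs, H3F3A and CCNE2 were named after their values were seen.

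Alternatives were other pseudocounts, filters and scalings, a replicate block, eBayes with no trend, each library left out in turn, a fit of only the groups compared, a lower fold, loci without a gene included, joined features left out and limma-voom on recovered reads. Class sums without pseudogenes and without each library, and other lists without each library, were added after the data were seen. Figures were drawn with matplotlib 3.10.9 in Python 3.11.15.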

Additional observations from a re-analysis of the deposited data

Results flagged for a closer look

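The features below differed between siCyclin K#1 and siCyclin K#2 in the direct limma test at an adjusted p under 0.05, while CCNK was left at 11.5% and 12.03% of scrambled. Values are siCyclin K#1 minus siCyclin K#2 on the log2 scale, and no cause was tested. The 9 that passed in every alternative they were fitted in were HIST1H1C with 2.14, HIST1H2BH with 1.80, HIST1H3G with 1.44, HIST1H2BK with 1.37, HIST1H2AC with 1.24, HIST1H3H with 0.81, HIST1H2BD with 0.68, HIST2H2BE with 0.60 and HIST2H2AA3 with 0.53. HIST1H2BH and HIST1H3G rest on at most 40 reads in a library. Both reached 0.1 FPKM only in the siCyclin K#1 libraries, so they entered the test through the group where they are high and had to differ, and their values are descriptions.

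The other 5 did not pass in some. HIST1H3E at 1.35 (adjusted p = 0.037) had a range of 0.020 to 0.11 over its alternatives, and did not pass without siCyclin K#1 library 1 (0.081), 2 (0.057) or 3 (0.11) or siCyclin K#2 library 2 (0.11) or 3 (0.082). HIST1H3C at 1.09 (adjusted p = 0.044, range 0.0081 to 0.14) passed in leaving out 1 library only for siCyclin K#1 library 2, and its adjusted p without each of the others was 0.051 to 0.14. HIST1H2BJ at 0.67 (adjusted p = 0.048, range 0.015 to 0.14) did not pass without scrambled library 1 (0.064) or any siCyclin K library (0.075 to 0.14). HIST2H2AA4 at 0.47 (adjusted p = 0.016, range 0.011 to 0.053) did not pass without siCyclin K#1 library 1 (0.053). The pseudogene HIST2H2BC was the only one lower with siCyclin K#1, at -0.47 (adjusted p = 0.029, range 0.013 to 0.097), and did not pass without siCyclin K#1 library 1 (0.090) or 3 (0.065) or siCyclin K#2 library 2 (0.097) or 3 (0.083).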

How the results depend on the processing

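Over all alternatives 30 of the 44 calls of members passed throughout, 14 did not pass in some, and no called value changed sign. The cause was not tested. The 30 include the calls of HIST1H2BH and HIST1H3G, which had to differ. Counts at an adjusted p under 0.05 over both siRNAs (8) were 5 at a mean of at least 1 FPKM and 5 with limma-voom, which tested 51 members, and 4 to 10 without 1 library. For siCyclin K#1 (12) they were 7 at that mean, for siCyclin K#1 against siCyclin K#2 (14) 9 with limma-voom, and without 1 library they were 12 to 14 for siCyclin K#1, 8 to 13 for siCyclin K#2 and 10 to 14 between them. Counts at a fold over 3 (0 over both siRNAs, 1 for siCyclin K#1, 1 for siCyclin K#2 and 2 between them) were 3, 8, 3 and 5 at a fold over 2. HIST1H2BH and HIST1H3G, which had to differ, are among the 8 and among the 5. Shares of all genes at a fold over 2 and in the alternatives below are not given here. For siCyclin K#1 they were 0 with a pseudocount of 0.5 or 1 or a mean of at least 1 FPKM, and 2 with limma-voom. For siCyclin K#2 they were 2 with limma-voom, with a replicate block or with only the groups compared. Between the siRNAs they were 1 with either pseudocount, that mean or quantile normalization, and 4 with limma-voom. Without 1 library they were 1 to 2, 1 to 2 and 2 to 3.

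Same-numbered libraries of different groups had correlations of deviations of -0.071 to 0.038 over 11243 genes, so the numbers do not pair the libraries, and with a replicate block the counts at an adjusted p under 0.05 were 6, 16, 13 and 11.

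Median-ratio rescaling gave class sums with siCyclin K#1 of 114% for H2A, 153% for H2B and 85.8% for H4, and H2B was 206% without pseudogenes. Without 1 library, siCyclin K#1 sums were 113% to 128% for H1, 113% to 127% for H2A, 157% to 164% for H2B, 106% to 116% for H3 and 86.4% to 95.9% for H4. With siCyclin K#2 they were 32.5% to 37.6% for H1, 80.3% to 90.9% for H2A, 96.4% to 105% for H2B, 79.8% to 86.5% for H3 and 82.6% to 91.8% for H4. List calls over both siRNAs were 5 to 11 for 3′ end factors, 5 to 10 for variants, 4 to 9 for chaperones (5 with median-ratio rescaling) and 6 to 11 for S phase genes, and CCNK ranged from -2.97 to -2.91. Depth limits members with few reads: of the 66, 7 were not tested.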
